A study of Caenorhabditis elegans with 14 samples.

Results

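The transcriptome of the skpo-1 mutant was compared with that of N2, the wild-type strain of C. elegans, while both were exposed to the pathogen E. faecalis. The comparison used 7 of the 14 RNA-seq libraries of the series, the 4 libraries labelled skpo-1 on E. faecalis and the 3 labelled N2 on E. faecalis, and covered every gene of the count table. The other 7 libraries came from the same genotypes on E. coli OP50, the usual laboratory food (4 of N2 and 3 of skpo-1), and are used here to estimate the spread and to ask whether an effect differed between the bacteria. Worms were placed on E. faecalis OG1RF at the L4 larval stage, exposed for 16 h and collected whole as day 1 adults for total RNA. The mutant strain, GF89, has a deletion in skpo-1 (allele ok1640). Since a single strain with a single allele was sequenced, the loss of skpo-1 and any other variant carried by that strain cannot be told apart.

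SKPO-1 is a heme peroxidase, an enzyme that uses hydrogen peroxide to oxidize its substrates. In the worm, hydrogen peroxide can be made by the dual oxidase BLI-3, and peroxidases can use it to cross-link tyrosines of the cuticle, the collagen coat that the epidermis secretes. SKPO-1 is known for its part in resistance to E. faecalis. The question was therefore which genes, among them those of the cuticle, of immunity and of detoxification, had other transcript levels when the peroxidase was missing during infection.

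Few genes differed between the genotypes on E. faecalis. Since whole worms were sequenced, fewer cells of a type and less RNA per cell cannot be told apart in any of these values. Of 21982 genes listed, 20683 had a count in some library and 15685 passed the filter on low counts. Of these, 17 genes (0.108%) were called changed, 10 (0.0638%) higher and 7 (0.0446%) lower in the mutant. A call needed 2 things, a Benjamini-Hochberg adjusted p under 0.05 over all genes tested in the quasi-likelihood test of edgeR, and a level at least doubled or halved, that is a log2 fold change of 1 or more in size. All log2 fold changes are skpo-1 over N2, so negative values mean less transcript in the mutant, and levels are in CPM, the counts of a gene as a share of all counts of its scaled library. An unadjusted p below 0.05 was reached by 1214 genes (7.74%), of which 622 (3.97%) were higher and 592 (3.77%) were lower. The libraries of the genotypes did not overlap for 1407 genes (8.97%), 817 higher (5.21%) and 590 lower (3.76%) in the mutant. Positive values were held by 47.1% of all genes. The number of calls depended on the tool. DESeq2's Wald test called 106 genes (0.621%), 75 higher (0.439%) and 31 lower (0.182%), with all 17 among them. The voom method of limma with sample weights called 167 (1.06%), 112 higher (0.714%) and 55 lower (0.351%), with 16 of the 17 among them. The median log2 fold change of all genes was -0.02 and the median standard error was 0.31. The libraries held 22111065 to 33219494 counts in N2 and 15434956 to 29235902 in skpo-1. The spread between worm samples, as the common biological coefficient of variation, was 0.293.

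**Figure D1:**
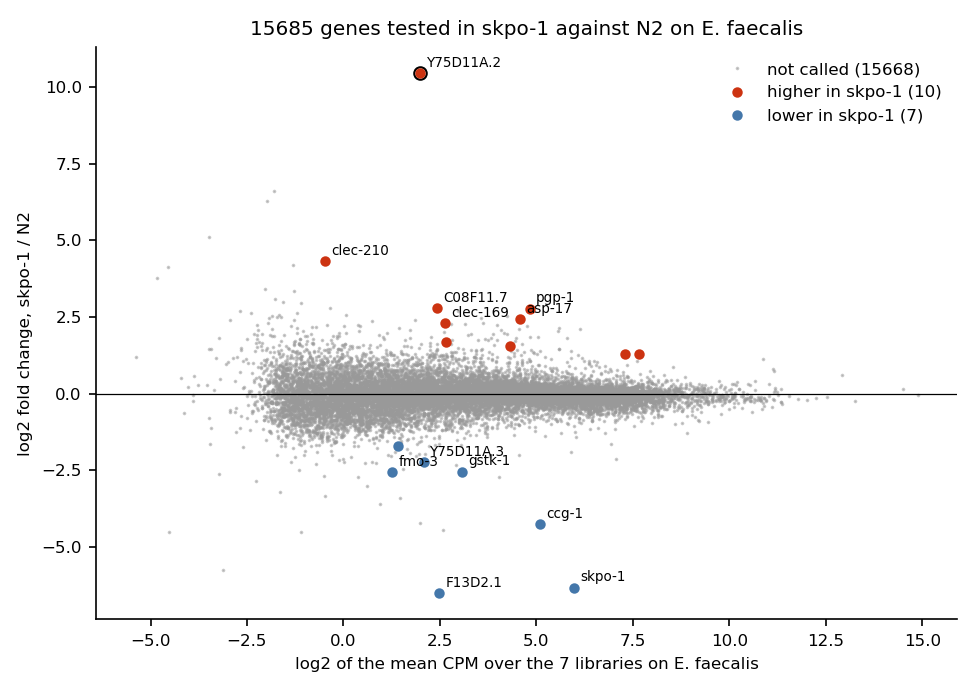
Each point is 1 of the 15685 genes tested, with the log2 of its mean CPM over the 7 libraries on E. faecalis on the x axis and its log2 fold change, skpo-1 over N2, on the y axis. The 10 genes called higher in skpo-1 are red and the 7 called lower are blue. F13D2.1 and skpo-1 have the lowest log2 fold changes of the genes called, -6.50 and -6.33. The circled Y75D11A.2 had no count in N2, so its fitted height depends on the prior count of the fit.

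The deleted gene checks the labels. skpo-1 (WBGene00009897, WBcel235 chromosome II, 8400299 to 8404848, minus strand) had 199, 126 and 112 CPM in the N2 libraries on E. faecalis and 1.78, 1.62, 2.26 and 1.65 CPM in those of the mutant. No mutant library came near an N2 library, and the mean fell from 146 ± 46.4 (SD, n = 3) to 1.83 ± 0.297 (SD, n = 4). The log2 fold change was -6.33 ± 0.21 (SE; edgeR adjusted p = 2.35e-10), about 80.4-fold lower. On E. coli the mean was 297 ± 13.2 in N2 (SD, n = 4) and 2.49 ± 0.156 in skpo-1 (SD, n = 3). Which part of the transcript the remaining reads came from cannot be read from counts per gene.

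The rest of the peroxidase family moved little. Of 11 listed heme peroxidases and dual oxidases, 8 were tested and skpo-1 was the only one called. bli-3, the dual oxidase that makes hydrogen peroxide, had 18.7, 20.7 and 16.5 CPM in N2 and 16.2, 14.1, 13.3 and 14.5 in skpo-1. The libraries of bli-3 did not overlap, yet its log2 fold change of -0.36 ± 0.22 did not pass the test (edgeR adjusted p = 0.698). pxn-2, a peroxidasin, had a log2 fold change of 0.07 ± 0.22, and skpo-3, another ShK domain peroxidase, one of 0.09 ± 0.35, and the libraries of both overlapped. The remaining 4 genes tested, mlt-7, pxn-1, skpo-2 and R08F11.7, had log2 fold changes of -0.05 to 0.10.

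Besides skpo-1, 6 genes fell. F13D2.1 (WBGene00008735, chromosome X, 11163956 to 11189615, minus strand), a protein-coding gene with no role named in the files, had 11.5, 14.5 and 12.6 CPM in N2 and 0.222, 0.162, 0.126 and 0.0393 in skpo-1. Its transcript was thus almost missing from every mutant library, at a log2 fold change of -6.50 ± 0.36 (edgeR adjusted p = 1.07e-07). F13D2.1 overlaps C05C9.1 and gnrr-6, and neither of these moved with it (log2 fold changes of 0.63 ± 0.46 and -0.61 ± 0.49, edgeR adjusted p = 0.746 and 0.766).

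ccg-1 (WBGene00000370, chromosome IV, 15270160 to 15275804) had 54.6, 81.1 and 88.5 CPM in N2 against 3.42, 4.08, 4.52 and 3.58 in skpo-1. The gap between the genotypes was far wider than the spread within either, with a mean of 74.7 ± 17.8 (SD, n = 3) against 3.90 ± 0.501 (SD, n = 4) and a log2 fold change of -4.26 ± 0.20 (edgeR adjusted p = 1.22e-08).

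A pair of detoxification enzymes fell as well. gstk-1 (chromosome II, 9656705 to 9657719), which codes for a kappa-class glutathione S-transferase, a family that conjugates or reduces substrates with glutathione, had 23, 13.3 and 11.9 CPM in N2 and 3.06, 2.95, 3.33 and 1.69 in skpo-1 (log2 fold change -2.54 ± 0.33, edgeR adjusted p = 0.00292). fmo-3 (chromosome III, 10694681 to 10698864), a flavin-containing monooxygenase, had 5.56, 3.78 and 4.32 CPM in N2 and 1.11, 0.616, 0.816 and 0.550 in skpo-1 (log2 fold change -2.56 ± 0.34, edgeR adjusted p = 0.00352). In both genes the lowest N2 library stood more than 3 times as high as the highest mutant library.

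The 2 remaining genes that fell have no role named in the files. Y75D11A.3 (chromosome X, 1745096 to 1746217, minus strand) had 11.9, 5.67 and 5.56 CPM in N2 and 1.87, 1.13, 1.51 and 2.04 in skpo-1, a log2 fold change of -2.23 ± 0.29 (edgeR adjusted p = 0.00318). Y69A2AR.12 (chromosome IV, 2568614 to 2572158) had 3.00, 5.73 and 4.56 CPM in N2 and 1.51, 1.3, 1.51 and 1.1 in skpo-1, a log2 fold change of -1.71 ± 0.29 (edgeR adjusted p = 0.0363). Y69A2AR.12 was the least stable call of the 17, kept under 9 of 22 other settings of the analysis. Its neighbour Y69A2AR.25, 246 bases away, had a log2 fold change of -2.27 ± 0.49 that did not pass the test (edgeR adjusted p = 0.166).

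Among the 10 genes that rose, Y75D11A.2 (WBGene00022291, chromosome X, 1742830 to 1743681, plus strand) was counted in the mutant libraries alone. It had 0 counts in every N2 library and 7.42, 7.29, 7.53 and 5.66 CPM in the mutant libraries, 656 counts in all. Against a floor of 3 counts over the N2 group it was at least 213-fold higher (edgeR adjusted p = 1.36e-06). The gene passed the filter on low counts only through the mutant libraries. Y75D11A.2 and Y75D11A.3 lie side by side on opposite strands, 1414 bases apart, and changed in opposite directions.

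pgp-1 (chromosome IV, 12591704 to 12599169), a P-glycoprotein of the ABC transporters that pump small molecules out of cells, had 6.0, 8.08 and 5.48 CPM in N2 and 38.7, 51.3, 52.4 and 36.4 in skpo-1. Its mean rose from 6.52 ± 1.37 (SD, n = 3) to 44.7 ± 8.33 (SD, n = 4), at a log2 fold change of 2.78 ± 0.32 (edgeR adjusted p = 0.00108). The 42 P-glycoproteins and related ABC transporters tested had a median of 0.01. The next gene to the left of pgp-1, cul-6, had a log2 fold change of 0.63 (edgeR adjusted p = 0.639).

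asp-17 (chromosome V, 19035723 to 19037322), an aspartic protease, had 6.18, 6.10 and 8.01 CPM in N2 and 36.3, 43.4, 40.5 and 25.5 in skpo-1. All 4 mutant libraries stood well above the 3 of N2, with a log2 fold change of 2.43 ± 0.27 (edgeR adjusted p = 0.00079). Of the 12 aspartic proteases tested it was the only one called. asp-4, a lysosomal cathepsin D-like protease, had 407, 180 and 171 CPM in N2 and 488, 493, 499 and 385 in skpo-1, so that a single N2 library reached the mutant range (log2 fold change 0.88 ± 0.27, edgeR adjusted p = 0.422).

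There were 3 C-type lectin genes, whose products carry a carbohydrate-binding fold, among the genes that rose. clec-210 (chromosome V, 3118377 to 3120323) had 0.132, 0.061 and 0 CPM in N2, 5 counts in all, and 0.977, 0.908, 1.0 and 1.97 in skpo-1 (log2 fold change 4.33 ± 0.61, edgeR adjusted p = 0.00546). clec-169 (chromosome IV, 1261324 to 1264622) had 0.839, 2.71 and 2.12 CPM in N2 and 11.1, 8.46, 5.78 and 12.2 in skpo-1 (log2 fold change 2.30 ± 0.40, edgeR adjusted p = 0.0406). clec-57 (chromosome V, 14469231 to 14472448) had 2.91, 3.6 and 1.79 CPM in N2 and 9.90, 7.39, 7.72 and 11 in skpo-1 (log2 fold change 1.70 ± 0.28, edgeR adjusted p = 0.0293). The libraries of the genotypes did not overlap for any of these lectins, but clec-210 was at a low level on E. faecalis in both genotypes.

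By its median, the lectin family as a whole showed no such shift. Of 237 C-type lectin genes 123 were tested, 62 of them were positive, and the median log2 fold change was 0.02 (-0.07 without the first N2 library, with 132 tested). An unadjusted p below 0.05 was reached by 16 higher and 10 lower members, 13% and 8.13% of those tested against 3.97% and 3.77% of all genes, above the share of all genes in both directions. The libraries of the genotypes did not overlap for 15 higher and 3 lower members of the 123, against 5.21% and 3.76% of all genes.

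The other genes that rose carry no role named in the files. F54E2.1 (chromosome V, 2810398 to 2812017) had 88.7, 82.6 and 90.5 CPM in N2 and 215, 221, 226 and 187 in skpo-1 (log2 fold change 1.28 ± 0.21, edgeR adjusted p = 0.0271). lro-1 (chromosome X, 6272089 to 6273768) had 90.3, 129 and 112 CPM in N2 and 226, 313, 306 and 231 in skpo-1 (log2 fold change 1.28 ± 0.16, edgeR adjusted p = 0.00292). These are the most abundant transcripts that rose, and both were raised to about 2.43-fold in the mutant.

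K08D8.4 (chromosome IV, 12907469 to 12909998) had 9.40, 9.33 and 9.58 CPM in N2 and 15.5, 40.6, 31.8 and 24.4 in skpo-1, a log2 fold change of 1.57 ± 0.28 (edgeR adjusted p = 0.0431). The mutant libraries of K08D8.4 spread widely, with an SD of 10.7 against 0.13 in N2. Its neighbour K08D8.5 had a log2 fold change of 0.95 (edgeR adjusted p = 0.281), and K08D8.6, on the same stretch of chromosome IV, one of 0.93 (edgeR adjusted p = 0.166). C08F11.7 (chromosome IV, 13637275 to 13638666) had 0.574, 1.01 and 2.04 CPM in N2 and 8.88, 7.39, 9.35 and 8.53 in skpo-1 (log2 fold change 2.79 ± 0.47, edgeR adjusted p = 0.0331). The genes on either side of C08F11.7 also had positive values that did not pass the test, C08F11.6 with 1.98 and ugt-22 with 0.82 (edgeR adjusted p = 0.294 and 0.639).

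**Figure D2:**
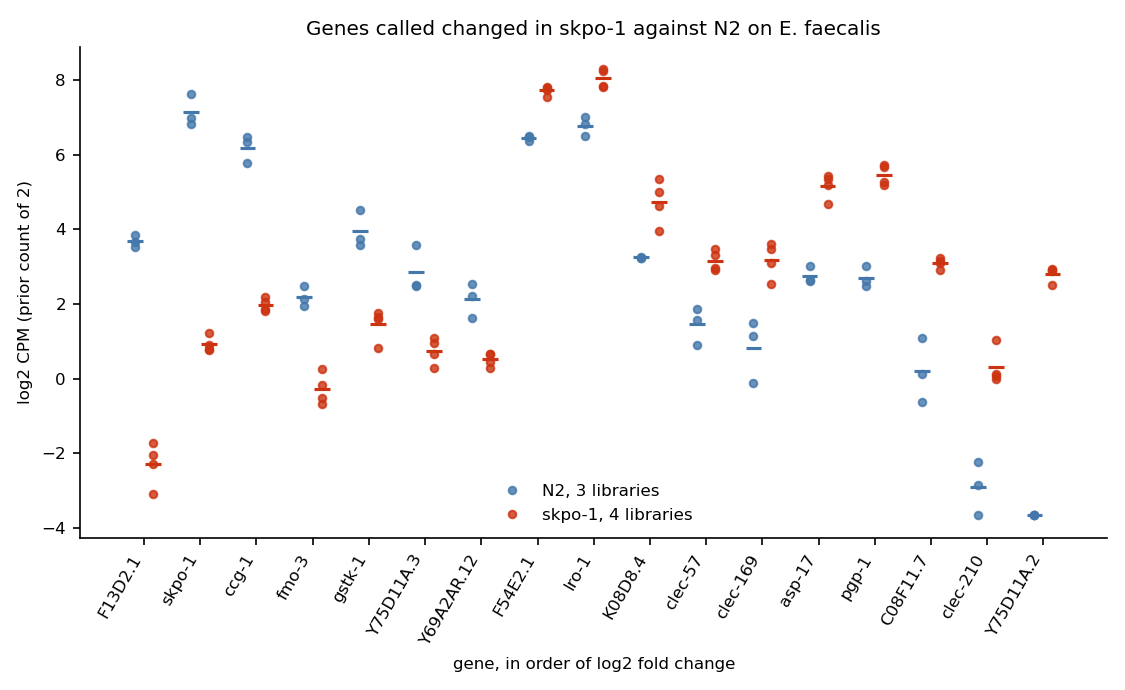
Log2 CPM with a prior count of 2 on the y axis for the 17 genes called, ordered by log2 fold change on the x axis. Blue points are the 3 N2 libraries and red points the 4 skpo-1 libraries on E. faecalis, and short lines are the group means. In every gene shown all points of one genotype lie above all points of the other. The 3 N2 points of Y75D11A.2 stand for 0 counts.

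By position, 6 of the 17 genes called lay on chromosome IV, 4 on V, 4 on X, 2 on II, 1 on III and none on I, where 2488 genes were tested. The deleted gene itself lies on II. Of its direct neighbours only dod-23, 1134 bases away, was tested, and it had 36.0, 25.1 and 31.2 CPM in N2 and 51.8, 55.5, 53.2 and 45.7 in skpo-1 (log2 fold change 0.74 ± 0.24, edgeR adjusted p = 0.493).

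The 10 genes next by p whose libraries did not overlap were not called. pho-14, an acid phosphatase, had 72.1 ± 10.9 CPM in skpo-1 (SD, n = 4) against 38.6 ± 0.828 in N2 (SD, n = 3). It passed the adjusted p alone (edgeR adjusted p = 0.0139), with a log2 fold change of 0.90 that lies under the minimum. plpp-1.2, a phospholipid phosphatase, had 19.9 ± 1.41 CPM against 9.47 ± 0.930 (log2 fold change 1.07, edgeR adjusted p = 0.0708). lips-11, a lipase-related gene, lies close to pho-14 on chromosome II and had 63 counts in the mutant and 3 in N2, a ratio of 20.5 with a 95% counting interval of 6.69 to 102 (edgeR adjusted p = 0.0735).

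In the other direction, lipl-3, a lysosomal acid lipase, had 0.839, 5.24 and 11.2 CPM in N2 and 0.577, 0.713, 0.251 and 0.590 in skpo-1 (log2 fold change -3.39, edgeR adjusted p = 0.102). ifc-1, an intermediate filament gene, had 7.81 ± 0.827 CPM in skpo-1 against 20.6 ± 9.29 in N2 (log2 fold change -1.41, edgeR adjusted p = 0.166). The libraries did not overlap for any of these 5 genes, and the wide spread of the N2 libraries of lipl-3 and ifc-1 stands beside their larger adjusted p. The remaining 5 genes named by the same rule, Y41C4A.32, B0511.11, K08D8.6, ZK896.1 and the cytochrome P450 gene cyp-14A4, had log2 fold changes of 0.93 to 1.87.

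Most of the called genes also differed between the genotypes on E. coli. On that bacterium 101 genes (0.644%) were called, 89 higher (0.567%) and 12 lower (0.0765%) in skpo-1, and 13 of the 17 genes called on E. faecalis were among them (0.0829% of all genes were called on both). The fits for both bacteria share their estimate of the spread but no library. F13D2.1 had a log2 fold change of -6.98 on E. coli, ccg-1 of -3.80, pgp-1 of 2.47, lro-1 of 1.39, C08F11.7 of 3.49 and clec-169 of 3.03. Y75D11A.2 had 1 count in N2 and 791 in skpo-1 on E. coli, a ratio of 1043 with a 95% counting interval of 187 to 41264.

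The levels on which these effects rest were not the same on both bacteria. pgp-1 had 29 ± 12.1 CPM in N2 (SD, n = 4) and 160 ± 42.5 in skpo-1 (SD, n = 3) on E. coli, against 6.52 ± 1.37 and 44.7 ± 8.33 on E. faecalis. clec-210 had 2.05 ± 0.678 and 11 ± 2.0 CPM on E. coli, against 0.0645 ± 0.0663 and 1.21 ± 0.503 on E. faecalis.

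The genes called on E. faecalis alone were F54E2.1, K08D8.4, clec-57 and asp-17. asp-17 had 4.57 ± 1.21 CPM in N2 and 6.96 ± 1.97 in skpo-1 on E. coli, a log2 fold change of 0.60, so its effect on E. faecalis was larger by 1.83 ± 0.37 on the log2 scale (unadjusted p = 0.000178 for the difference, edgeR adjusted p = 0.432). F54E2.1 had 85.4 ± 26.8 and 81.7 ± 17.7 CPM on E. coli, a log2 fold change of -0.07, and a difference of 1.35 ± 0.29 between the bacteria (unadjusted p = 0.000358, edgeR adjusted p = 0.440). K08D8.4 and clec-57 had log2 fold changes of 0.49 and 0.96 on E. coli. gstk-1 and fmo-3 fell on both bacteria, by 4.04 and 3.75 on the log2 scale on E. coli.

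No gene passed the test of a difference between the bacteria, the interaction of genotype and bacterium (edgeR with Benjamini-Hochberg adjustment, 0 genes called). An unadjusted p below 0.05 was reached by 1216 genes (7.75%), and DESeq2 called 55 genes and limma voom with sample weights 18. The smallest adjusted p in edgeR was 0.0968, shared by fmo-2 and T22F3.11. fmo-2, a flavin-containing monooxygenase known as a stress-responsive gene, had 704, 698 and 787 CPM in N2 and 615, 718, 572 and 743 in skpo-1 on E. faecalis, with overlapping libraries (log2 fold change -0.14 ± 0.22), and a log2 fold change of 1.99 on E. coli.

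**Figure D3:**
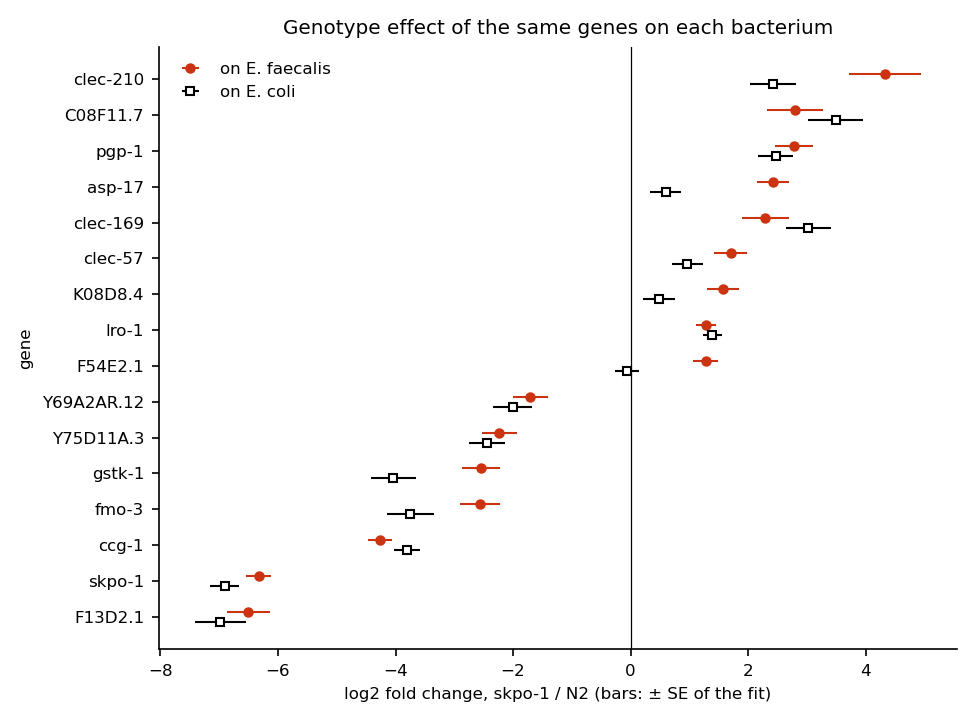
Log2 fold change, skpo-1 over N2, on the x axis for 16 of the genes called on E. faecalis, on E. faecalis (red circles) and on E. coli (open squares), with bars of ± 1 SE of the fit. Y75D11A.2 is left out because it had 0 counts in N2 on E. faecalis. Markers of F13D2.1, ccg-1 and pgp-1 lie close together on both bacteria, whereas those of clec-210, asp-17, gstk-1 and F54E2.1 lie 1.91, 1.83, 1.49 and 1.35 apart, and none of these differences passed the adjusted test.

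Genes of the cuticle were mostly higher in the mutant without any of them being called. Of 175 cuticle collagen genes, which code for the structural proteins of the cuticle, 148 were tested, 118 of these were positive, and the median log2 fold change was 0.73. An unadjusted p below 0.05 was reached by 40 higher members (27%, against 3.97% of all genes) and 2 lower ones (1.35%, against 3.77%). The libraries of the genotypes did not overlap for 30 higher members and 1 lower one of the 148, against 5.21% and 3.76% of all genes.

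The collagens of smallest p were bli-6, col-73, col-175 and col-49. bli-6 had 16.7, 10.3 and 12.4 CPM in N2 and 65.6, 36.3, 21.7 and 66.0 in skpo-1 (log2 fold change 1.85, edgeR adjusted p = 0.279). col-73 had 24.5, 21.4 and 26.1 CPM in N2 and 144, 66.4, 37.5 and 167 in skpo-1 (log2 fold change 2.11, edgeR adjusted p = 0.352). In both genes mutant libraries 1 and 4 were the highest and library 3 the lowest, and the latter was still above N2. The mean log2 CPM over the collagens followed the same order, with 4.6, 4.04, 3.45 and 4.32 in the mutant libraries against 3.58, 3.43 and 3.27 in N2, so library 3 lay within the N2 range. The summed collagen level overlapped, at 8692 to 17105 CPM in skpo-1 and 9462 to 17098 in N2. On E. coli the median of the same collagens was 1.23, and 25 were called higher, against 0.567% of all genes.

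Shorter lists of collagens are parts of the list above, so their values are no added evidence. The list named adult epidermis collagens and markers held 9 genes, all of them collagen genes, with values of -0.30 to 2.25 and a median of 1.06. An unadjusted p below 0.05 was reached by 3 (33.3%, against 3.97% of all genes), all higher. Their summed level overlapped, at 1408 to 3105 CPM in N2 and 1236 to 2358 in skpo-1. col-19, a collagen that is high in adults, had a log2 fold change of -0.02. rol-6, a collagen gene whose mutations make worms roll, had 5.47, 3.72 and 5.70 CPM in N2 and 34.6, 13, 8.04 and 38.9 in skpo-1 (log2 fold change 2.25, edgeR adjusted p = 0.398). The 6 furrow collagens, which form the rings of the cuticle, all had positive values (median 0.67, and 0.44 without mutant library 4), and none reached an unadjusted p below 0.05.

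Of 40 hedgehog-related genes tested, secreted proteins linked to molting and the cuticle, 31 were positive, with a median of 0.46. At an unadjusted p below 0.05, 5 were higher and 0 lower (12.5% and 0%, against 3.97% and 3.77% of all genes). The median was 0.25 without mutant library 4 and 0.29 without N2 library 3. They were led by grd-14 (1.85, 2.59 and 1.41 CPM in N2 and 11.5, 4.67, 2.51 and 9.35 in skpo-1, log2 fold change 1.84, edgeR adjusted p = 0.351), whose libraries overlapped. The 28 patched-related genes had a median of 0.04 and the 19 molting genes one of 0.03.

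By its median, the list named cuticle damage reporters stayed near 0. Of its 11 genes, 3 were positive, with a median of -0.05 and none at an unadjusted p below 0.05. Part of the list reads out a damaged cuticle or the osmotic, detoxification and antimicrobial responses that go with it. Of such readouts, hmit-1.1, nlp-31 and gst-4 were positive, and nlp-29 (-0.16), gpdh-1 (-0.04) and gcs-1 (-0.0047) were below 0. The list also holds sta-2, elt-3 and skn-1, whose products the paper describes as transcription factors acting upstream of such readouts. Whether the transcript levels of these genes follow cuticle damage was not tested. The list median therefore does not measure the readouts alone. hmit-1.1, a myo-inositol transporter of the osmotic response, had a log2 fold change of 0.44 ± 0.28, nlp-31, an antimicrobial peptide, 0.29 ± 0.32, gst-4, a glutathione S-transferase used as a reporter of the oxidative stress factor SKN-1, 0.21 ± 0.30, and snf-12, a transporter needed for the epidermal immune response, -0.63 ± 0.30. The other 7, nlp-29, gpdh-1, gcs-1, sta-2, dcar-1, elt-3 and skn-1, had log2 fold changes of -0.17 to -0.0047.

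Immune genes showed different pictures by group. A list of 22 intestinal immune genes held irg and dod genes, which respond to infection in the intestine or lie downstream of the insulin pathway, and hpo-6, hpo-15, cebp-2 and zip-2. Of these, 18 were positive with a median of 0.39 (0.60 without the first N2 library). At an unadjusted p below 0.05, 5 (22.7%) were higher and none lower, against 3.97% and 3.77% of all genes. Among these 5 is dod-23, the neighbour of the deleted gene given above. dod-17 had 9.49, 5.67 and 7.71 CPM in N2 and 14.8, 18.2, 12.8 and 14 in skpo-1 (log2 fold change 0.98 ± 0.22, edgeR adjusted p = 0.168). irg-1 had 1.77, 1.92 and 2.23 CPM in N2 and 5.15, 5.28, 4.33 and 4.48 in skpo-1 (log2 fold change 1.28 ± 0.32, edgeR adjusted p = 0.256). Both genes had libraries that did not overlap, with values that did not pass the test. On E. coli the median of this list was -0.11, and N2 replicate 2 there had the highest mean log2 CPM of its group (3.75, against 3.03 to 3.20).

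The members of the p38 cascade and the immune transcription factors had a median of -0.16 (-0.28 without the first N2 library and -0.06 without the second), with 5 of 20 positive. pmk-1, the p38 MAP kinase of worm immunity, had 16.7, 35.8 and 35.4 CPM in N2 and 16.3, 15.9, 17.7 and 18.4 in skpo-1 (log2 fold change -0.78, edgeR adjusted p = 0.652), so that the first N2 library sat among those of the mutant and the others at about the same higher level. hlh-30, the TFEB homologue of host defence, had 93.0, 194 and 151 CPM in N2 and 71.7, 111, 105 and 26.9 in skpo-1 (log2 fold change -0.90, edgeR adjusted p = 0.641). Of 21 pals genes, which are known from the response to intracellular pathogens, 9 were positive with a median of -0.21, which ran from -0.46 to -0.05 with a library left out.

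Among the secreted antimicrobial effectors values went both ways. ilys-3, an invertebrate lysozyme, had 5.17, 19.2 and 16.4 CPM in N2 and 2.84, 5.67, 2.07 and 6.25 in skpo-1 (log2 fold change -1.68, edgeR adjusted p = 0.398), and lys-2, another lysozyme, had 70.3, 29.7 and 27.9 CPM in N2 and 103, 95, 101 and 79.1 in skpo-1 (log2 fold change 1.15, edgeR adjusted p = 0.639). nlp-34, an epidermal antimicrobial peptide, had 1.59, 2.35 and 4.29 CPM in N2 and 6.31, 5.35, 6.40 and 10.8 in skpo-1 (log2 fold change 1.39, edgeR adjusted p = 0.515). The 23 epidermal antimicrobial peptides together had a median of 0.08, and of 0.28 without the first N2 library.

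The 4 detoxification families given next were mostly on the positive side, with small values. Other lists were not, as 2 of 5 flavin-containing monooxygenases were positive (median -0.06) and 21 of 42 P-glycoproteins and related ABC transporters (median 0.01). Of 63 UDP-glucuronosyltransferases, which add sugars to toxins, 49 were positive with a median of 0.32. At an unadjusted p below 0.05, 10 (15.9%) were higher and 0 lower, against 3.97% and 3.77% of all genes. Of 45 glutathione S-transferases 33 were positive with a median of 0.24 and 7 higher (15.6%) and 1 lower (2.22%) at that p, the lower one being gstk-1. Of 63 cytochrome P450 genes 40 were positive with a median of 0.16 and 9 higher (14.3%) and 1 lower (1.59%). Of 37 short-chain dehydrogenases 26 were positive with a median of 0.24 and 6 higher (16.2%) and 0 lower. gstk-1 was the only call in these 4 families. Without the first N2 library the median of the UDP-glucuronosyltransferases was 0.54, and without mutant library 4 that of the cytochrome P450 genes was 0.07. On E. coli the medians of the 4 families were -0.10, -0.35, -0.14 and -0.19 in the order given. There N2 replicate 2 had the highest mean log2 CPM of the N2 libraries for each family, 2.13 against 1.18 to 1.35 for the glutathione S-transferases. That library lay farther from its group mean than any other of the series (root mean square difference of 0.825 log2 units over genes). Medians without it are not given here.

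ugt-21 had 23, 12.3 and 9.01 CPM in N2 and 49.7, 34, 36.4 and 39.3 in skpo-1 (log2 fold change 1.44 ± 0.32, edgeR adjusted p = 0.168). gst-38 had 2.03, 1.95 and 2.39 CPM in N2 and 5.60, 9.43, 6.53 and 5.31 in skpo-1 (log2 fold change 1.66 ± 0.43, edgeR adjusted p = 0.273). Neither passed the test, although the libraries of the genotypes did not overlap. The 26 superoxide dismutases, catalases, peroxiredoxins and their kin, enzymes that remove superoxide and hydrogen peroxide, had a median of 0.16 and none at an unadjusted p below 0.05.

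Genes that handle heme and iron, the cofactor of the missing peroxidase, were positive in 13 of 14 cases, with a median of 0.47. At an unadjusted p below 0.05, 3 (21.4%) were higher and 0 lower, against 3.97% and 3.77% of all genes. smf-3, a metal transporter, had 8.26, 6.10 and 6.65 CPM in N2 and 13, 9.89, 13.9 and 10.2 in skpo-1 (log2 fold change 0.74 ± 0.26, edgeR adjusted p = 0.547). hrg-2, a heme-responsive gene of the epidermis, had 33.5, 9.66 and 4.99 CPM in N2 and 58.2, 30.9, 27 and 47.7 in skpo-1 (log2 fold change 1.36 ± 0.56, edgeR adjusted p = 0.639). ftn-2, a ferritin that stores iron, had 143, 142 and 154 CPM in N2 and 170, 217, 190 and 208 in skpo-1 (log2 fold change 0.42 ± 0.20, edgeR adjusted p = 0.646). On E. coli the median of this list was -0.26. There N2 replicate 2 again had the highest mean log2 CPM of its group (3.57, against 2.41 to 2.78), with 2.60 to 2.74 in skpo-1.

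**Figure D4:**
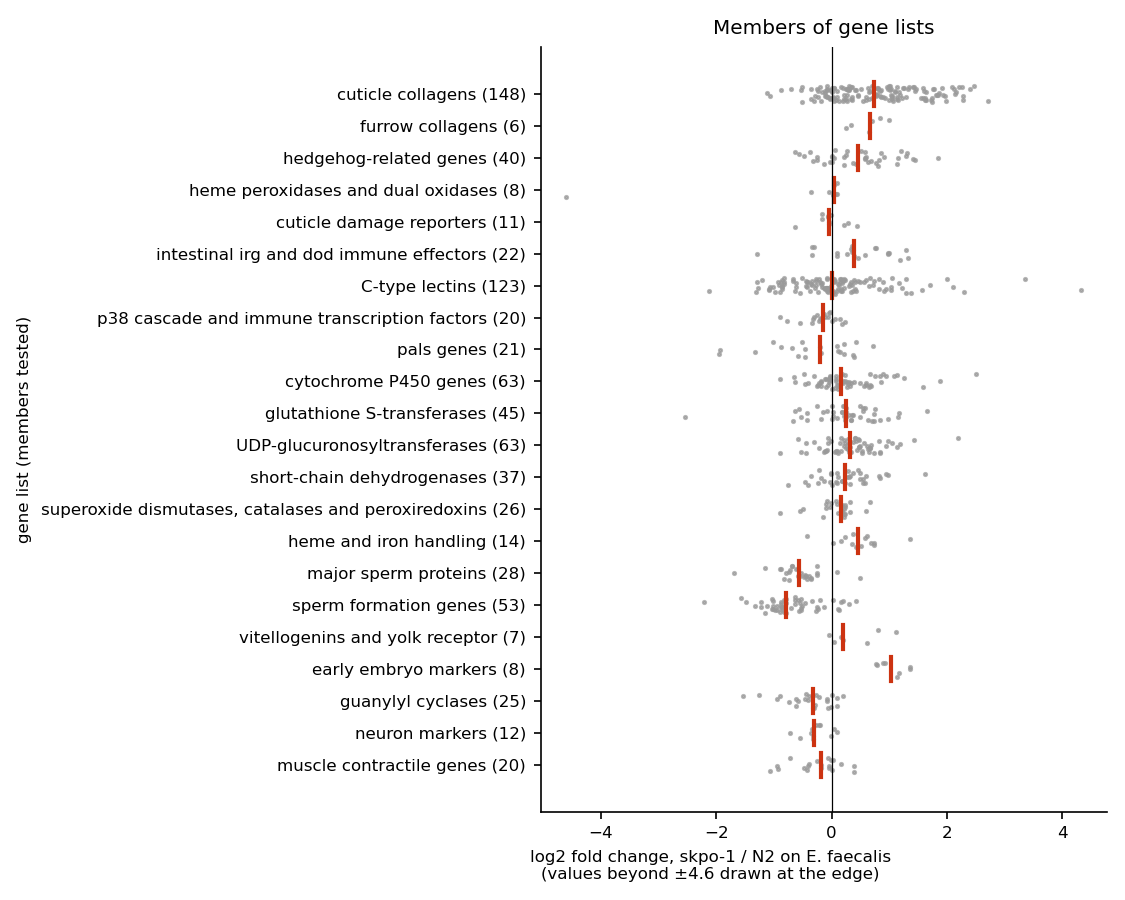
Each grey point is 1 member of a gene list, with its log2 fold change, skpo-1 over N2 on E. faecalis, on the x axis, and red bars are list medians. Numbers in brackets are the members tested. Medians of the cuticle collagens (0.73) and the early embryo markers (1.03) lie to the right of 0 and those of the major sperm proteins (-0.57) and the sperm formation genes (-0.79) to the left. The point at the left edge is skpo-1.

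Transcripts of the germ line differed in level between libraries. In a whole hermaphrodite, sperm are made at the larval stage and oocytes and embryos follow once the worm is adult. Of 53 sperm formation genes tested 7 were positive, with a median of -0.79. At an unadjusted p below 0.05, 11 were lower (20.8%) and 1 higher (1.89%), against 3.77% and 3.97% of all genes. Of 28 major sperm protein genes 2 were positive, with a median of -0.57. Without the third N2 library the medians of both lists were -0.06 and -0.07. ssp-19, a sperm-specific gene, had 0.706, 0.762 and 4.02 CPM in N2 and 0.577, 0.616, 0.188 and 0.157 in skpo-1 (log2 fold change -2.21, edgeR adjusted p = 0.378). The summed level of the major sperm proteins was 209, 262 and 539 CPM in N2 and 277, 238, 95.9 and 284 in skpo-1, so that the third N2 library stood above all others and the rest overlapped. On E. coli the medians of the sperm formation genes and the major sperm proteins were 0.77 and 1.0, of the opposite sign. There the summed level of the major sperm proteins was 372 CPM in mutant replicate 3, against 160 and 113 in the other mutant libraries and 83.9 to 143 in N2. For the difference between the bacteria, 23 and 19 members of these lists reached an unadjusted p below 0.05, against 7.75% of all genes. How far single libraries carry these counts was not tested.

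Early embryo markers were on the positive side. All 8 early embryo markers had positive values with a median of 1.03 (1.56 without the first N2 library), at a summed level of 17.6, 5.7 and 4.8 CPM in N2 and 13.6 to 30.7 in skpo-1. The vitellogenins, yolk proteins that the intestine makes for the oocytes, were positive in 6 of 7 cases counted with the yolk receptor rme-2 (median 0.21, and 0.85 without the first N2 library and 0.09 without the second). vit-3 had 2682, 412 and 274 CPM in N2 and 2094, 3096, 3630 and 976 in skpo-1 (log2 fold change 1.13 ± 0.75, edgeR adjusted p = 0.727). For vit-3 and for the embryo markers the first N2 library lay within the mutant range and the others below it. The summed level of the vitellogenins and rme-2 overlapped, at 27385 to 101758 CPM in N2 and 26957 to 100213 in skpo-1. Of 20 eggshell and oocyte genes 16 were positive, with a median of 0.15, and of 20 P-granule and meiosis genes 5 were positive, with a median of -0.08. No member of these lists was called.

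The number of genes called changed most when the first N2 library was left out. That library lay farther from its group mean than any other library of the comparison (root mean square difference of 0.603 log2 units over genes, against 0.346 to 0.545). Without it 157 of 16168 genes tested (0.971%) were called, 93 higher and 64 lower, and all of the 17 remained among them. Without either of the other N2 libraries, 10 and 13 genes were called.

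A further 140 genes were called without that library and not with all libraries, and those with the largest changes are given as a description. For 103 of the 140 the first N2 library lay inside the mutant range or beyond it. irg-5, a gene induced by pathogens, had 14.1, 0.427 and 0.380 CPM in N2 and 5.55, 9.37, 7.79 and 6.41 in skpo-1, a log2 fold change of 0.58 with all libraries (edgeR adjusted p = 0.881) and 4.16 without the first N2 library (edgeR adjusted p = 0.000715). cyp-35A3, a cytochrome P450 gene, had 121, 3.08 and 7.30 CPM in N2 and 169, 26.8, 35.1 and 82.8 in skpo-1 (0.84 and 3.92 on the log2 scale, edgeR adjusted p = 0.836 and 0.0405). cpr-2, a cathepsin B-like protease, had 0.0883, 9.60 and 16.3 CPM in N2 and 0.222, 0.583, 0.251 and 0.747 in skpo-1 (-4.21 and -4.77, edgeR adjusted p = 0.168 and 0.000657). spp-27, a saposin-like gene, had 0.177, 6.10 and 32.9 CPM in N2 and 0 to 1.76 in skpo-1 (-4.43 and -5.01, edgeR adjusted p = 0.322 and 0.0238). Without that library lips-11 had a log2 fold change of 3.83, F57G4.1 of 3.58, Y48E1B.8 of 3.54, clec-15 of -4.40, Y60C6A.3 of -4.70 and Y60C6A.2 of -4.83, and the last 3 did not pass the filter on low counts with all libraries. Among the lists, 7 of 67 cytochrome P450 genes, 5 of 63 UDP-glucuronosyltransferases, 5 of 132 C-type lectins, 4 of 22 intestinal immune genes and 2 of 150 cuticle collagens were called higher without it, against 0.575% of all genes, and 4 C-type lectins were called lower, against 0.396%. The first N2 library also lay within the mutant range for vit-3 and the embryo markers, as given above, and their part in the result was not tested.

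The levels of long genes were lower in 2 of the 4 mutant libraries. For the 226 genes tested with more than 6000 exonic bases, the median difference from the middle of the 7 libraries was -1.32 log2 units in mutant library 4 and -0.39 in mutant library 1, against 0 to 0.23 in the other libraries. The median log2 fold change of these genes was -0.50, and that of the 1430 genes of more than 3000 and up to 6000 bases was -0.22, against 0.04 for the 8992 genes of up to 1500 bases. Without mutant library 4 the medians were -0.27, -0.12 and 0.03. Of the genes called, F13D2.1 (5154 bases) and pgp-1 (4092 bases) were longer than 3000 bases.

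Lists with long members lay on either side of 0. The 25 guanylyl cyclases, sensory and signalling enzymes of which 18 exceed 3000 exonic bases, had a median of -0.33 with 4 positive, and one of -0.27 without mutant library 4, -0.57 without the first N2 library and -0.15 without the second. gcy-35 had 2.34, 5.21 and 6.03 CPM in N2 and 1.42, 1.69, 1.51 and 1.65 in skpo-1 (log2 fold change -1.53, edgeR adjusted p = 0.442). unc-22, which codes for the giant muscle protein twitchin, had 284, 292 and 219 CPM in N2 and 107, 202, 165 and 34.4 in skpo-1 (log2 fold change -1.06, edgeR adjusted p = 0.673), with mutant library 4 far below the others. The 20 muscle contractile genes had a median of -0.18 and -0.12 without that library, and the 12 neuron markers -0.30 and -0.33 (-0.06 without the second N2 library). In these 2 lists 12 and 9 members do not exceed 3000 bases. The vitellogenins and rme-2, of which 6 of 7 exceed 3000 bases, had a median of 0.21, and the ABC transporters, with 27 of 42, one of 0.01. The part of gene length in these values was not tested.

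**Figure D5:**
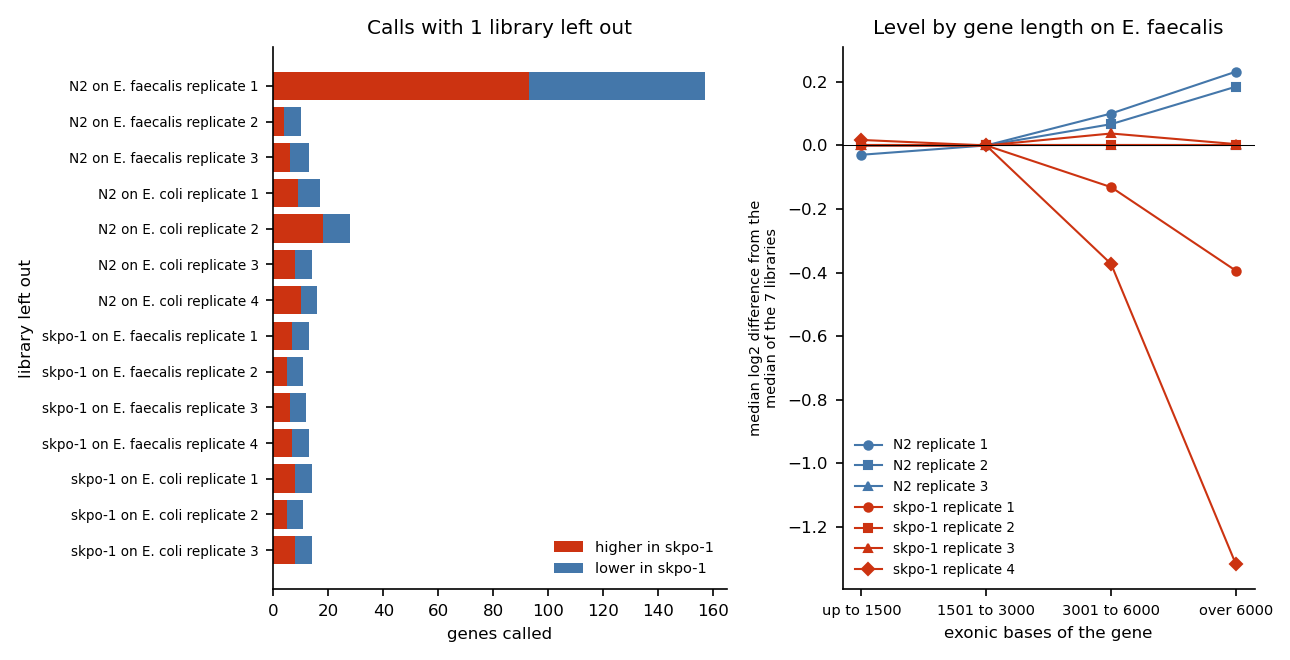
Left, the number of genes called higher (red) and lower (blue) in skpo-1 on E. faecalis on the x axis with the library on the y axis left out. It is 157 without N2 replicate 1 on E. faecalis and 10 to 28 without any other library. Right, the median log2 difference of a library from the median of the 7 libraries on the y axis, by exonic length of the genes on the x axis, for N2 (blue) and skpo-1 (red). Mutant replicate 4 falls to -1.32 for genes over 6000 bases.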

How the data were processed

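Total RNA of whole worms was sequenced as 75-nt paired-end reads. The authors trimmed the reads (Trimmomatic 0.36), estimated transcript abundance with salmon 1.2.1 on the transcripts of WBcel235 and used tximport for gene totals. Estimated counts, which the authors deposited as whole numbers, are the values analysed. Normalized values from DESeq2, a signal that the authors deposited besides and that uses its own factor per gene in every library, served as another scaling only. Neither the strand setting of the reads nor shared copies can be resolved from the tables, so overlapping genes such as F13D2.1 and near-identical copies such as the major sperm proteins are uncertain. Of 21982 identifiers, 21896 were found in Ensembl release 115 for WBcel235, from which names, exon lengths and coordinates were taken.

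Genes were kept by filterByExpr (minimum count 10, minimum total 15), scaled by TMM and tested with edgeR 4.0.16 in R 4.3.3, fitting all 14 libraries at once with a coefficient for each of the groups, and Benjamini-Hochberg adjustment. Log2 CPM used a prior count of 2. Floors are 3 counts over a group, and 95% intervals of ratios are exact for counting error only. Lists were described by counts and medians, with no test. The labels call the replicates biological, and all pairs in both groups differed by more than counting noise. Alternatives were DESeq2 1.42.0 with and without ashr 2.2.63 shrinkage, limma 3.58.1 voom with sample weights, other scalings, filters and thresholds, a replicate block and leaving out each library. The code was tested on simulated counts.

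Named genes were all genes called, the 10 next by p with libraries that did not overlap, up to 4 members of smallest p per list, all heme peroxidases and cuticle damage reporters, the 5 highest and 5 lowest genes called without a deciding library but not with all libraries, and neighbours of called genes. The check of gene length and T22F3.11 were added after their values were seen. The comparison and the lists were chosen with earlier results of these data known.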

Additional observations from a re-analysis of the deposited data

Results flagged for a closer look

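Of 34 groups of 4 libraries examined for the 17 genes called (each gene in skpo-1 on E. faecalis and in N2 on E. coli), 5 held a library far from the others. For values spread as a normal distribution, chance gives about 1 in 20. That rate does not apply to Y75D11A.2 in N2 on E. coli, where any count in a single library sets the flag. On E. faecalis, clec-210 had 1.97 CPM in mutant replicate 4 and 0.908 to 1.0 in the other mutant libraries. Y75D11A.2 had 5.66 CPM in the same library and 7.29 to 7.53 in the others, the lowest value of its group. In N2 on E. coli, ccg-1 had 49.9 CPM in replicate 3 against 55.2 to 56.3, gstk-1 had 33.3 CPM in replicate 2 against 17.2 to 19.7, and Y75D11A.2 had 0.0387 CPM, a single count, in replicate 3 against 0 in the others. Each of these libraries stayed on its own side of the gap between the genotypes.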

How the results depend on the processing

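The fall of skpo-1 passed the threshold under all 22 alternatives, with log2 fold changes of -6.49 to -6.04, and so did F13D2.1, ccg-1, fmo-3, gstk-1, asp-17, pgp-1 and Y75D11A.2, 8 of the 17 genes called. The count of 17 genes (10 higher, 7 lower) moved with the tool and with single libraries. DESeq2's Wald test called 106 (75 and 31), with shrunken fold changes 77 (54 and 23), and voom with sample weights 167 (112 and 55), which lost K08D8.4 alone. Other scalings and no filter on low counts gave 17 or 18. A fit of the compared groups alone called 10 (5 and 5). An adjusted p below 0.01 left 11 genes. With each library left out in turn the count ran from 10 to 157 (4 to 93 higher, 6 to 64 lower). It was 157 without N2 on E. faecalis replicate 1, 28 without N2 on E. coli replicate 2, 10 without N2 on E. faecalis replicate 2, and 11 without replicate 2 of skpo-1 on either bacterium. The 0 genes with a different effect between the bacteria became 2 with no filter on low counts, 55 in DESeq2, 54 with shrinkage, 18 in voom and 0 to 24 with a library left out, 24 without N2 on E. faecalis replicate 1. This test could not be run on the compared groups alone. Same-numbered libraries of the genotypes on E. faecalis had correlations of 0.178, 0.128 and -0.250, and other same-numbered pairs of the series ran from -0.527 to 0.245. These values cannot settle whether equal numbers mark paired libraries. With a replicate block 11 genes were called (5 and 6) with the interaction still at 0. Over the alternatives, 471 values of the called and nearest genes kept their side of the threshold, 67 were weaker, 34 stronger and none reversed, and 33 values of list medians moved by more than the spread between libraries against 1001 that did not. Where calls changed, the cause was not tested. With 3 libraries in 1 group and the spread given above, changes near the minimum fold lie at the limit of what these data can show.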

Other observations

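Some gene groups not described above had small medians. The 191 nuclear hormone receptors tested had a median log2 fold change of 0.00. At an unadjusted p below 0.05, 6 (3.14%) were higher and 0 lower, against 3.97% and 3.77% of all genes. nhr-142 had 3.88, 2.47 and 2.28 CPM in N2 and 6.97, 5.41, 6.91 and 8.76 in skpo-1 on E. faecalis (log2 fold change 1.29 ± 0.29, edgeR adjusted p = 0.182). The 116 F-box A genes had a median of 0.15, and 76 of them were positive (65.5%, against 47.1% of all genes). Their libraries did not overlap for 16 higher and 1 lower member, against 5.21% and 3.76% of all genes. At an unadjusted p below 0.05, 6 (5.17%) were higher and 1 (0.86%) lower. The 97 neuropeptide genes had a median of -0.04 and the 50 heat shock and mitochondrial chaperone genes one of -0.01. No gene of these lists was called.

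Lysosomal proteases and lipases held single members that stood apart. cpr-1, a cathepsin B-like protease, had 743, 1315 and 788 CPM in N2 and 374, 638, 505 and 487 in skpo-1, with libraries that did not overlap (log2 fold change -0.92 ± 0.23, edgeR adjusted p = 0.268). lipl-1, a lysosomal acid lipase, had 37.3, 60.6 and 34.9 CPM in N2 and 17.1, 23.9, 21.8 and 21.5 in skpo-1, again without overlap (log2 fold change -1.07 ± 0.34, edgeR adjusted p = 0.471). cpr-6, another cathepsin B-like protease, had 495, 439 and 370 CPM in N2 and 528, 610, 590 and 506 in skpo-1 (log2 fold change 0.36 ± 0.16, edgeR adjusted p = 0.639).

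Among insulin-like peptides, ins-5 had 1.24, 0.610 and 0.679 CPM in N2 and 2.40, 1.85, 1.63 and 1.93 in skpo-1 (log2 fold change 1.23 ± 0.36, edgeR adjusted p = 0.378). The list as a whole had a median of -0.05 over 29 genes.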
